A study of Mus musculus with 6 samples.

Results

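The 8 genes described here encode the synaptonemal complex and the HORMA proteins of the meiotic chromosome axis: Sycp1, Sycp2, Sycp3, Syce1, Syce2, Syce3, Hormad1 and Hormad2. Their members were taken as every probe set, the array's unit of roughly 1 exon or exon part, that is annotated with exactly 1 gene symbol equal to one of these names. This gave 103 probe sets for 8 genes, out of 269751 probe sets and 23152 genes on the array. Transcript levels in testicular germ cells were compared between control mice, which carried the floxed allele Mgat1[F/F], and mutant mice of genotype Mgat1[F/F]:Stra8-iCre, here called Mgat1 cKO. All were FVB males of 23 days post-partum (dpp), and both genotypes carried the floxed alleles. The Stra8 promoter drives iCre in spermatogonia, so that Mgat1, which encodes the transferase that starts complex and hybrid N-glycan synthesis, is deleted in germ cells only. RNA from germ cells of 6 mice was pooled for each genotype, and 3 aliquots of each pool were run on separate arrays (Mouse Gene 2.0 ST). The spread between arrays and every p-value therefore measure aliquots of 1 pool, and genotype and pool cannot be told apart.

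The synaptonemal complex is the protein ladder that joins homologous chromosomes in meiotic prophase. SYCP2 and SYCP3 build the axis of each homolog, SYCP1 forms the transverse filaments that bridge the axes, and SYCE1, SYCE2 and SYCE3 make the central element where the filaments meet. HORMAD1 and HORMAD2 coat axes that have not synapsed, are linked to break formation and to the recruitment of the kinase ATR, and are stripped from synapsed axes by the ATPase TRIP13. In the testis these genes are known as markers of primary spermatocytes, from leptotene to pachytene.

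Promoter sequences of the members are shown because the members are transcribed in the same stage and 4 of them share an E-box. All 8 members had a promoter window in the RefSeq table (GRCm38.p6), each running from 250 bases before to 50 bases after a transcription start, and 11 windows were listed in all. Motifs were searched on both strands. The letters CACGTG, which read the same on both strands, were present in 5 of 11 windows, against 7.15% of 32851 windows of all genes. They belonged to 4 of 8 members, Sycp1, Sycp3, Syce2 and Hormad1, against 8.09% of all genes. The E2F-type letters TTCCCGC were found for 3 genes, Sycp3, Syce2 and Hormad1, against 5.29% of all genes. The letters TAACNG, a short form of the MYB site, were found for 6 genes, against 25.9% of all genes. None of the motifs contains another, and a match of letters is a description only. Apart from a Syce3 window with 5, the windows of the members held 10 to 33 CpG dinucleotides, against a median of 7 in all windows. CACGTG and TTCCCGC contain CpG themselves, so the shares of all genes are not matched to these windows. The 4 windows below are those with CACGTG, in capitals, 5′ to 3′ in the direction of transcription. Of the 2 overlapping Hormad1 windows with the letters, 1 is shown.
Sycp1, chr3:102936051-102936350, minus strand: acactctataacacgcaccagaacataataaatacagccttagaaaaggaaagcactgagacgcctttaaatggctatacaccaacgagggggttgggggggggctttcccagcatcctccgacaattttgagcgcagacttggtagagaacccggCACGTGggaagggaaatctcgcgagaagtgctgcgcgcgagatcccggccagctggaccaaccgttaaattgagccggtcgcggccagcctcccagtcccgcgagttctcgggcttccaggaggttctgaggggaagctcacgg
Sycp3, chr10:88459337-88459636, plus strand: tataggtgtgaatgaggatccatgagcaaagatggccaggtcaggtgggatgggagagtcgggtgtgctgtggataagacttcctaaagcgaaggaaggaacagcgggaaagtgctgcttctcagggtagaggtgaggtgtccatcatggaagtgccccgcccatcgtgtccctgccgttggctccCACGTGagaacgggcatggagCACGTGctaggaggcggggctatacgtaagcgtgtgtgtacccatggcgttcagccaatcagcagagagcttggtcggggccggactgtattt
Syce2, chr8:84872008-84872307, plus strand: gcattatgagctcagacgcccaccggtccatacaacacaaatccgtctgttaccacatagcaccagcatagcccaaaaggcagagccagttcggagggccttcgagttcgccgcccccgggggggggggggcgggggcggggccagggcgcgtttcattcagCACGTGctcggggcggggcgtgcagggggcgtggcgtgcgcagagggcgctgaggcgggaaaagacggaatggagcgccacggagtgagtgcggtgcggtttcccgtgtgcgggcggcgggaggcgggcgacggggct
Hormad1, chr3:95559427-95559726, plus strand: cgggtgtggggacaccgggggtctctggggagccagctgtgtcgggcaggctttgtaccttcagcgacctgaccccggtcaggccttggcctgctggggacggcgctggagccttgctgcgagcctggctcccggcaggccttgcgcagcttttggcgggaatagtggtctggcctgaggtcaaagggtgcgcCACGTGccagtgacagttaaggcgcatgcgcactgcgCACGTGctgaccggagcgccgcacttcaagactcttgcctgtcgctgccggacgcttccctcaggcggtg
Counted from the start, the match of Sycp1 began at position -94 and that of Syce2 at -88. Sycp3 held a pair of matches, and so did Hormad1. The levels of these 4 genes, given below, did not share a direction.

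Levels are given as log2 RMA values, a background-corrected and quantile-normalized log2 intensity. A gene's value is the mean over its probe sets, and differences are Mgat1 cKO minus control, with 95% intervals (limma) and p-values adjusted over all 23152 genes by the Benjamini-Hochberg method. The level of one gene was not tested against that of another. Levels of different genes were ranked or summed only to choose named genes, to sum lists and to call genes or probe sets dim or bright. Across genes, arrays within a genotype correlated at r = 0.994 to 0.996 and arrays of different genotypes at 0.979 to 0.980, and array medians were 6.85 to 6.87. Mgat1 itself was 6.31 ± 0.13 in control and 6.30 ± 0.18 in Mgat1 cKO (SD, n = 3), with an adjusted p of 0.94 in limma. Of its 12 probe sets, 1 passed the test, lower by 1.01 (adjusted p = 0.037). Which of the 12 lie in the floxed part was not examined here, so the gene mean does not check the genotype labels.

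None of the 8 members passed an adjusted p of 0.05, a threshold passed by 8.41% of all genes (6.07% higher and 2.35% lower in Mgat1 cKO). For a set of 8 genes, a count of 0 is near that share. At an unadjusted p under 0.05, 3 members passed, Sycp2, Sycp3 and Syce2, against 24.1% of all genes. The mean was lower in Mgat1 cKO for 5 members (62.5%), close to the 64.5% of all genes with a lower mean. All 3 Mgat1 cKO arrays were under the lowest control for 3 members, Sycp1, Sycp2 and Sycp3, where 20.1% of all genes did so, and above for 1, Syce2, where 11.2% did so. The median difference over the members was -0.16, and over all genes -0.05. The intervals rest on aliquots of 1 pool per genotype, so they bound the difference between the pools and carry no spread between mice. The lowest lower bound of the 8 was 0.667-fold (Hormad1) and the highest upper bound 1.43-fold (Syce2). No interval reached a change of 2-fold. With 3 arrays against 3, an exact two-sided permutation test of a single gene cannot go below p = 0.10.

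**Figure D1:**
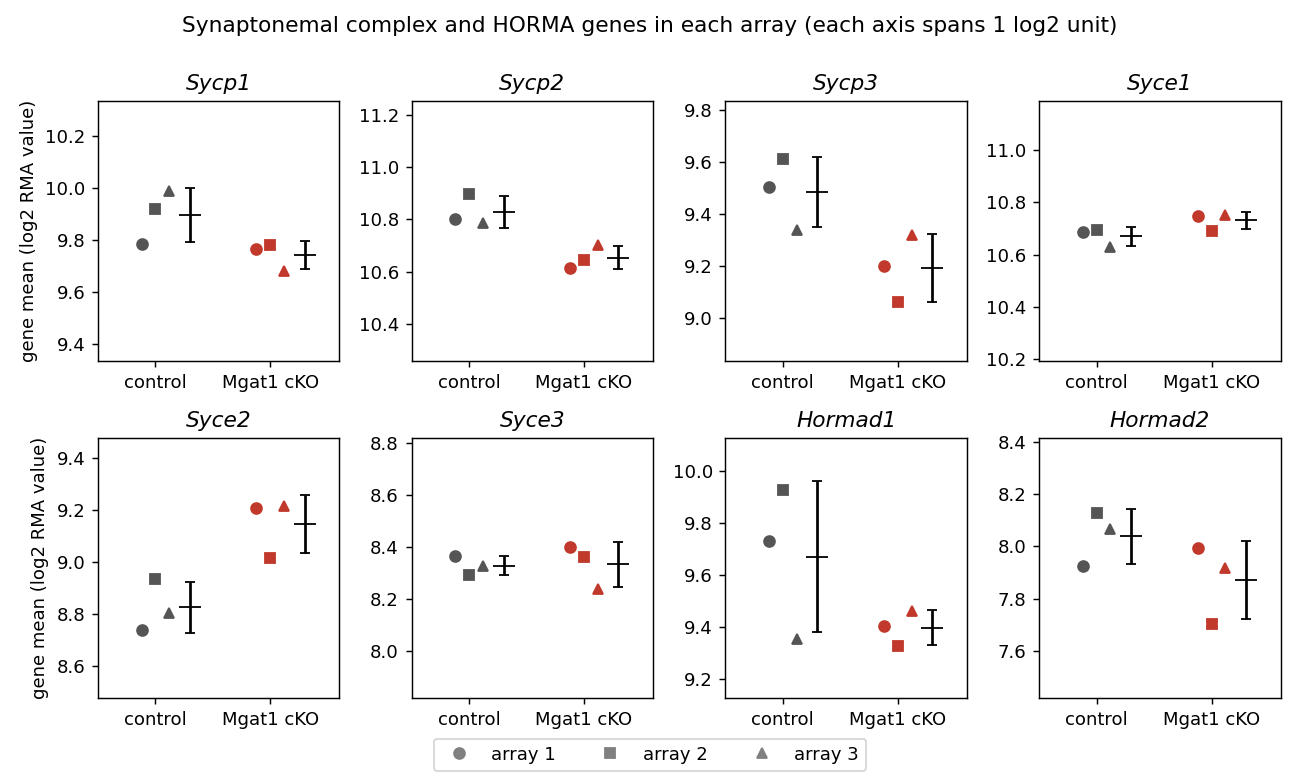
Log2 RMA level (vertical axis, per panel) of each of the 8 members on the 3 control and 3 Mgat1 cKO arrays; a point is 1 array, and the bars are the mean and SD of a genotype. Groups did not overlap for Sycp1, Sycp2 and Sycp3, lower in Mgat1 cKO, and for Syce2, higher, and overlapped for the other 4.

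Among the axis genes, Sycp3 had the largest difference of the gene means. Sycp3 (chr10:88459587-88473236 in GRCm38.p6, the RefSeq build of all positions here) encodes the core filament of the axial element, a standard spermatocyte marker. Its level was 9.50, 9.61 and 9.34 on the control arrays and 9.20, 9.06 and 9.32 on the Mgat1 cKO arrays. All Mgat1 cKO arrays were lower, but control 3 and Mgat1 cKO 3 lay next to each other. The difference was -0.29 (SE 0.10, interval -0.51 to -0.07, 0.818-fold), with an unadjusted p of 0.016 and an adjusted p of 0.11. With the median level of the probe sets on each array in place of their mean, Sycp3 was at -0.05 (adjusted p = 0.89). Hormad1, at -0.35, then had the larger difference. For Sycp3 this median level was that of 1 probe set of middle brightness (17236368). The median of the probe set differences themselves was -0.27 for Sycp3 and -0.17 for Hormad1. All 7 Sycp3 probe sets had a lower mean in Mgat1 cKO, by 0.05 to 0.63, and for 2 of them the arrays did not overlap. The dimmer of these (17236377) read 8.81, 9.04 and 8.58 in control and 8.13, 8.43 and 8.50 in Mgat1 cKO, a difference of -0.46 (adjusted p = 0.36 over all probe sets). The other (17236370) read 10.67, 10.50 and 10.32 in control and 10.04, 10.13 and 10.30 in Mgat1 cKO, a difference of -0.34. In both, control 3 and Mgat1 cKO 3 were the nearest arrays, as in the gene mean.

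Sycp2 (chr2:178345295-178407776), whose product lines the axis together with SYCP3, was 10.80, 10.90 and 10.79 in control and 10.61, 10.64 and 10.70 in Mgat1 cKO. Again all Mgat1 cKO arrays were below control, with a narrow spread in both groups. The difference was -0.18 (SE 0.06, interval -0.32 to -0.03, 0.886-fold), with an unadjusted p of 0.026 and an adjusted p of 0.15. Sycp2 had the most probe sets of the 8 genes, 39, and 35 of them had a lower mean in Mgat1 cKO. The arrays did not overlap for 8 of these, all lower in Mgat1 cKO, and 4 of the 39 had an unadjusted p under 0.05. The tightest of them (17395438) was 10.59, 10.60 and 10.63 in control and 10.37, 10.33 and 10.30 in Mgat1 cKO, a difference of -0.27 (adjusted p = 0.34). A more variable one (17395452) was 9.82, 10.26 and 9.56 in control and 9.26, 9.17 and 9.32 in Mgat1 cKO, a difference of -0.63 (adjusted p = 0.27). Its probe sets were thus mostly lower, at sizes from slight to moderate, with the median probe set at -0.14. They were read on the same arrays and are not independent repeats. Such counts, here and for the other members, are to be read beside those of all probe sets. Of these, 57.9% had a lower mean and 12.2% an unadjusted p under 0.05. In 10.8% the Mgat1 cKO arrays were lower without overlap, and in 8.66% higher.

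The transverse filament gene Sycp1 (chr3:102818499-102936100) was 9.78, 9.92 and 9.99 in control and 9.77, 9.78 and 9.68 in Mgat1 cKO. Its groups barely separated, since control 1 and Mgat1 cKO 2 round to the same level. The difference of -0.15 (SE 0.07, interval -0.32 to 0.02, 0.899-fold) had an adjusted p of 0.25. Its 8 probe sets were evenly divided, with 4 lower and 4 higher in Mgat1 cKO, and only 1 of them did not overlap between genotypes. Most of the gene's mean difference came through 1 dim probe set (17408592), which read 2.89, 3.33 and 4.95 in control and 2.76, 3.35 and 2.39 in Mgat1 cKO. With dim probe sets left out, the gene's difference was -0.05 (adjusted p = 0.64). The probe set without overlap (17408608) read 10.64, 10.82 and 10.64 in control and 10.46, 10.41 and 10.62 in Mgat1 cKO. The median difference over the 8 probe sets was -0.03.

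No central element gene among the 8 members had a lower mean in Mgat1 cKO. The central element genes Tex12 and Six6os1, given below, did (-0.15 and -0.13). Syce2 (chr8:84872111-84887446), whose product forms fibres with TEX12 that extend the central element along the chromosome, was 8.74, 8.93 and 8.81 in control and 9.21, 9.02 and 9.21 in Mgat1 cKO. Every Mgat1 cKO array was above every control array, with Mgat1 cKO 2 the nearest to control. The difference of 0.32 (SE 0.08, interval 0.13 to 0.51, 1.25-fold) was the largest in size among the 8, with an unadjusted p of 0.0050 and an adjusted p of 0.056. The call depended on the setting: with each array centred on its median the adjusted p was 0.048, without Mgat1 cKO 2 it was 0.036, and with an intensity trend in limma it was 0.0050. It was 0.11 with dim probe sets left out, 0.14 with plain analysis of variance, and 0.065 to 0.18 without each of the other arrays. All 8 probe sets had a higher mean in Mgat1 cKO, and for 3 of them the arrays did not overlap. The widest gap was in a dim probe set (17503246) at 3.86, 4.06 and 4.08 in control and 5.05, 4.37 and 5.53 in Mgat1 cKO, a difference of 0.98 with an adjusted p of 0.25 over all probe sets. A second dim probe set (17503253) was at 4.97, 5.51 and 4.52 in control and 5.92, 5.85 and 5.40 in Mgat1 cKO, with overlap. In the bright probe sets the gaps were smaller: one (17503252) read 10.52, 10.67 and 10.58 in control and 10.73, 10.67 and 11.01 in Mgat1 cKO. The median over the 8 probe sets was 0.18, below the 0.32 of their mean.

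Syce1 (chr7:140777229-140787854), a central element protein that binds SYCE3 and SIX6OS1, was 10.69, 10.69 and 10.63 in control and 10.75, 10.69 and 10.75 in Mgat1 cKO. The groups overlapped and the spread was small. The difference was 0.06 (interval -0.08 to 0.20, 1.04-fold, adjusted p = 0.56), although 12 of 13 probe sets had a higher mean in Mgat1 cKO. Syce3 (chr15:89390174-89410503), which is needed to load the other central element proteins, read 8.36, 8.29 and 8.33 in control and 8.40, 8.36 and 8.24 in Mgat1 cKO. The difference was 0.00 (interval -0.15 to 0.16, 1.00-fold, adjusted p = 0.98), and its sign changed in 4 of 14 alternatives. Of its 3 probe sets, 1 (17320496) was higher in every Mgat1 cKO array, by 0.25, and the other 2 were lower by 0.10 and 0.13 with overlap.

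Hormad1 (chr3:95559677-95587863) encodes the HORMA protein required for normal break number and synapsis, and had the widest spread. It was 9.73, 9.93 and 9.36 in control and 9.41, 9.33 and 9.46 in Mgat1 cKO. Control 3 lay within the Mgat1 cKO arrays, and the other control arrays were above all of them. The difference was -0.27 (SE 0.13, interval -0.58 to 0.04, 0.828-fold), with an adjusted p of 0.26. It moved with single control arrays: without control 3 it was -0.43 (adjusted p = 0.038), and without control 2 it was -0.14 (adjusted p = 0.54). The lower mean held for 8 of 9 probe sets, and for 3 of them the arrays did not overlap. In the probe set with the largest difference (17400394), control read 7.99, 8.19 and 6.97 and Mgat1 cKO 7.05, 6.70 and 6.83, so here too control 3 was near the mutant arrays. Without control 3, this probe set differed by -1.23 (adjusted p = 0.047). A probe set without overlap (17400397) was 9.68, 9.81 and 9.52 in control and 9.45, 8.79 and 9.19 in Mgat1 cKO, a difference of -0.53 (adjusted p = 0.35). The brightest probe set of the gene (17400391) was 12.60, 12.59 and 12.56 in control and 12.36, 12.41 and 12.47 in Mgat1 cKO, a difference of -0.17. There control 3 stood with the other control arrays, unlike in the gene mean.

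Hormad2 (chr11:4345801-4441198), the HORMA protein linked to ATR recruitment on unsynapsed axes, was 7.92, 8.13 and 8.07 in control and 7.995, 7.70 and 7.92 in Mgat1 cKO. The groups overlapped, with Mgat1 cKO 2 lowest. The difference was -0.17 (SE 0.09, interval -0.39 to 0.05, 0.890-fold), with an adjusted p of 0.31. Without Mgat1 cKO 2 it was -0.08 (adjusted p = 0.60). Of 16 probe sets, 13 had a lower mean in Mgat1 cKO and 1 did not overlap. That probe set (17259981) was 7.16, 7.14 and 6.97 in control and 6.92, 6.89 and 6.47 in Mgat1 cKO, a difference of -0.33 (adjusted p = 0.49).

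**Figure D2:**
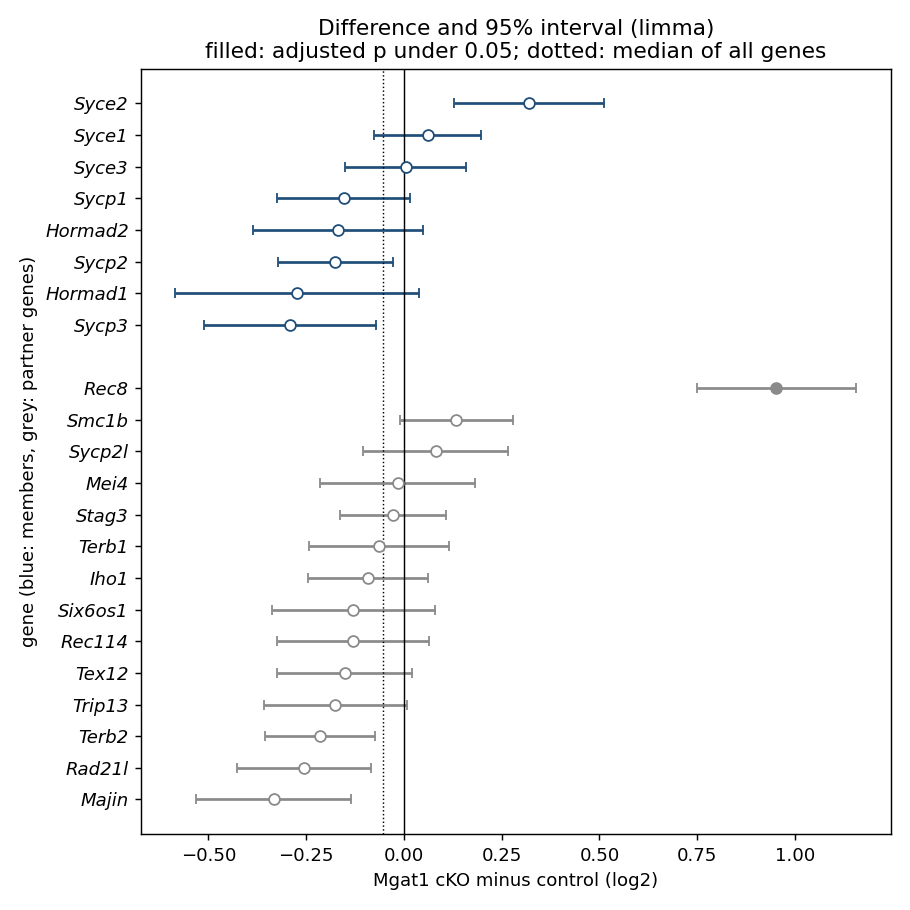
Log2 difference (horizontal axis, Mgat1 cKO minus control) of the 8 members (blue) and 14 partner genes (grey), with points for the gene mean, filled where the adjusted p was under 0.05, bars for the 95% interval and a dotted line at the median of all genes. Among members the interval of Syce2 lies above 0 and those of Sycp2 and Sycp3 below, and the only filled point is Rec8.

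The order of the arrays within a genotype was partly shared between members. Control 2 was the highest control array for 6 of 8 members. Mgat1 cKO 2 was the lowest mutant array for 5 of 8 and Mgat1 cKO 3 the highest for 5 of 8. The lowest control array was control 1 for 3 members, control 2 for 1 and control 3 for 4. These counts were not set against all genes, so an offset of a whole array cannot be told apart from an order particular to the members. Each array was left out in turn, and the calls this changed are given with Syce2, Hormad1 and Sycp2.

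Of the 103 probe sets, 0 passed an adjusted p of 0.05 over all probe sets, against 2.05% of all (1.87% higher and 0.18% lower), and the lowest adjusted p was 0.25. At an unadjusted p under 0.05, 10 (9.71%) passed, 8 lower and 2 higher, against 12.2% of all. In mean, 70 (68.0%) were lower in Mgat1 cKO, against 57.9% of all probe sets, and the median difference was -0.10 against -0.05. Arrays did not overlap for 15 lower (14.6%) and 5 higher (4.85%), against 10.8% and 8.66% of all. The shares without overlap and at the unadjusted threshold were thus near those of the whole array. Level mattered for the scatter: among the 52 dimmer probe sets the median within-genotype SD was 0.22 and the median size of a difference 0.20, and among the 51 brighter ones 0.086 and 0.10. The median difference was -0.15 in the dimmer and -0.06 in the brighter probe sets.

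**Figure D3:**
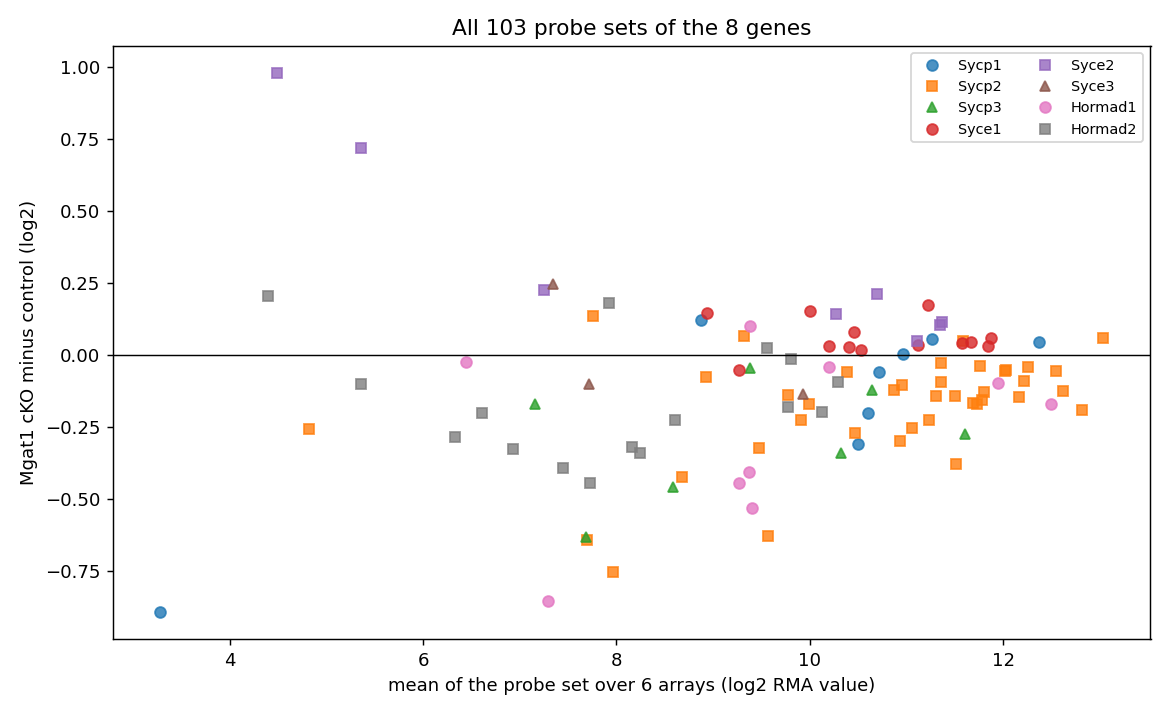
Log2 difference (vertical axis, Mgat1 cKO minus control) of each of the 103 probe sets of the 8 members by its mean log2 level over the 6 arrays (horizontal axis), coloured by gene. The differences spread widest among dim probe sets, and Syce2 probe sets lie above 0 while those of Sycp3 lie below.

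Probe sets of a gene were also compared with each other, to see whether exons of a member moved apart. In limma's diffSplice test 0 of 8 members passed an adjusted p of 0.05, against 7.44% of the 20833 genes with more than 1 probe set, and the lowest adjusted p was 0.15, for Syce2. At single probe sets, 1 of the 103, in Sycp2 (17395456), differed from the rest of its gene by -0.59, with an adjusted p of 0.019 in diffSplice. The share of all probe sets that passed at this level was not counted, so this call has no background beside it. It read 8.52, 8.61 and 7.90 in control and 7.68, 7.09 and 8.003 in Mgat1 cKO, so the groups overlapped. Without Mgat1 cKO 3, Sycp2 as a whole had unlike probe sets (adjusted p = 0.018 in diffSplice), where 6.65% of all tested genes did. A further 4 probe sets carry a second symbol and were left out by the rule. Those shared by Sycp3 and Chpt1, 3 in number, had differences of -0.01, -0.16 and -0.06, and the 1 shared by Hormad1 and Gm7167 had 0.11. With the shared probe sets included, a choice made after seeing the data, Sycp3 was at -0.23 with an adjusted p of 0.17.

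Further genes, among them genes of the chromosome axis and the central element, were listed as partners of the members. Of 16 listed partners 14 were measured. At an adjusted p under 0.05, 1 was higher in Mgat1 cKO, Rec8, and 0 were lower, where 8.41% of all genes passed. The mean was lower for 11 of the 14, where 64.5% of all genes had a lower mean. The median difference was -0.11. Rec8 encodes the meiotic cohesin subunit that holds sister chromatids together along the axis. Its level was 6.43, 6.39 and 6.57 in control and 7.50, 7.50 and 7.26 in Mgat1 cKO. The groups were far apart for the spread within them. The difference was 0.95 (SE 0.09, interval 0.75 to 1.16, 1.94-fold, adjusted p = 2.1e-04 in limma), and all 20 probe sets had a higher mean, 19 of them with no overlap. Rec8 rose while the other cohesin subunits of the axis did not pass the test. Stag3 differed by -0.03 (adjusted p = 0.81), Smc1b by 0.13 (adjusted p = 0.24) and Rad21l by -0.26 (adjusted p = 0.080). The difference between Rec8 and these was not tested.

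The central element partners Tex12 and Six6os1 differed by -0.15 (adjusted p = 0.26) and -0.13 (adjusted p = 0.42). Trip13, whose product removes the HORMA proteins, differed by -0.18 (adjusted p = 0.23). Majin, a part of the complex that attaches telomeres to the nuclear envelope, had -0.33 with an adjusted p of 0.054, and all 12 of its probe sets had a lower mean. Terb2, another partner, had -0.21 (adjusted p = 0.076), and all 8 of its probe sets had a lower mean. The partner Terb1 had -0.06 (adjusted p = 0.66), with 14 of its 23 probe sets lower and 9 higher in mean. In diffSplice, unlike probe sets were found among the 14 partners for Rec8 (adjusted p = 0.013), Smc1b (4.0e-06), Majin (0.047) and Sycp2l (0.023). Of the 20833 genes tested, 7.44% had unlike probe sets. Sycp2l was dim, with a mean of 4.49 in control and 4.57 in Mgat1 cKO.

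Lists for the stages around the members place these values in the sample. Their counts are to be read beside the 8.41% of all genes that passed, the 64.5% with a lower mean and the median of -0.05. No gene of 11 measured early meiotic genes passed, and all 11 had a lower mean, with a median of -0.12. Among them, Dmc1, the meiotic strand exchange recombinase, had -0.26 (adjusted p = 0.059) and Msh5, a crossover factor, -0.20 (adjusted p = 0.16), while Meioc, which sustains the meiotic programme, had -0.03 (adjusted p = 0.87). Of 10 genes of silencing on unsynapsed chromatin, to which the HORMA proteins are linked, 0 passed, with a median of -0.09. Scml2, a germline Polycomb protein, had the largest difference there, -0.19 (adjusted p = 0.16), followed by the ubiquitin ligase Rnf8 with -0.14 (adjusted p = 0.18). Atr, the kinase itself, had -0.06 (adjusted p = 0.54). Of 10 pachytene genes 1 passed: Pgk2, the glycolytic kinase of late spermatocytes and spermatids, rose by 0.55 (adjusted p = 7.9e-04). The median of that list was -0.04. Aurkc, a meiotic Aurora kinase, had 0.23 (adjusted p = 0.062), and Piwil1, a piRNA-binding protein, -0.06 (adjusted p = 0.60). Of 10 spermatogonial genes 0 passed, with a median of -0.16. Nanos2, a stem cell regulator, had -0.29 (adjusted p = 0.39), Uchl1, a ubiquitin hydrolase, -0.21 (adjusted p = 0.17) and Id4, a stem cell marker, -0.05 (adjusted p = 0.63). All 10 spermatid genes rose, with a median of 2.38, including Tnp2, a transition protein, by 3.33, Txndc2, a thioredoxin of the sperm tail, by 3.22 and Prm2, a protamine, by 1.84.

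Among markers of somatic cells of the testis, those that passed the test were lower in Mgat1 cKO. Sertoli markers had 1 of 10 lower (Fshr, the FSH receptor, -0.25, adjusted p = 0.041) and 0 higher. Leydig markers had 3 of 7, stromal markers 4 of 8 and macrophage markers 4 of 8 lower, and 0 higher in each list. Of all genes, 2.35% passed as lower and 6.07% as higher. In the Sertoli list, Rhox5, a homeobox gene, had -0.35 (adjusted p = 0.093) and Inha, the inhibin alpha subunit, -0.14 (adjusted p = 0.20). In the Leydig list the mean was lower for 5 genes and higher for 2. Insl3, a Leydig cell hormone with only 1 probe set, had the largest difference of that list, 0.80 (adjusted p = 0.20). Its levels of 6.50, 6.42 and 5.38 in control and 6.40, 7.44 and 6.85 in Mgat1 cKO overlapped. The steroid enzymes Hsd3b6 (-0.46, adjusted p = 0.0041) and Cyp17a1 (-0.26, adjusted p = 0.032) fell, and so did Star (-0.43, adjusted p = 0.0086). In the stroma, Col1a1, a collagen (-0.42, adjusted p = 0.0028), and Pdgfra, a growth factor receptor (-0.32, adjusted p = 0.036), fell, and Acta2, smooth muscle actin, had -0.16 (adjusted p = 0.16). In the macrophage list, Cd74, the invariant chain (-0.45, adjusted p = 0.010), and C1qb, a complement subunit (-0.37, adjusted p = 0.022), fell. The log2 of the summed level over a list was 12.54 to 12.57 in control and 12.45 to 12.48 in Mgat1 cKO for Sertoli, 11.80 to 11.83 and 11.53 to 11.56 for Leydig, 12.49 to 12.52 and 12.30 to 12.32 for stroma, and 10.23 to 10.31 and 10.02 to 10.08 for macrophages. For spermatid genes it was 10.02 to 10.03 and 12.30 to 12.33, and for spermatogonial genes 10.84 to 10.92 and 10.74 to 10.79. Every probe set of the array has a value, so these sums do not by themselves show which cells were in the samples. The part of somatic cells, and that of the spermatid genes, in the values of the 8 members was not tested. In RNA of bulk samples, fewer cells of a type and less RNA per cell cannot be told apart.

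**Figure D4:**
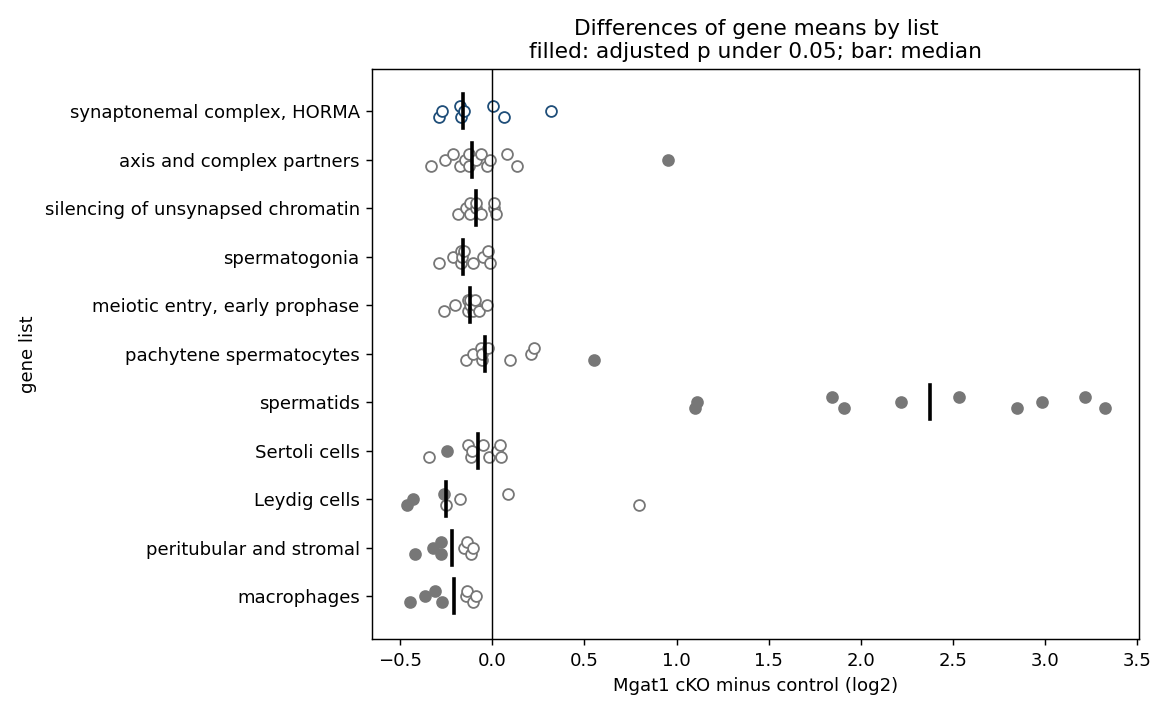
Log2 difference (horizontal axis, Mgat1 cKO minus control) of each measured gene of the members, their partners and the stage and cell type lists (rows), a point a gene, filled where the adjusted p was under 0.05, and a bar the median of a list. The spermatid genes stand to the right, and the 8 members lie within 0.32 of 0.

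Syce2, as the member with the largest difference, was set against genes that pass the test and are in no list, to find those with the most similar pattern over the 6 arrays. Of 1924 such genes, Lrrc43 (Pearson r = 0.996), Psg16 (r = 0.995) and Hpcal4 (r = 0.991) were nearest. Psg16 was dim, with a mean of 4.36 in control and 4.83 in Mgat1 cKO. The correlations are descriptions over 6 arrays of 2 pools, and the genes were selected for a difference between genotypes.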

How the data were processed

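Germ cell RNA of 6 mice per genotype was pooled, and 3 aliquots per pool were hybridised to Mouse Gene 2.0 ST arrays. The deposited values are log2 RMA intensities per probe set that the authors made with Affymetrix Expression Console (version not given in the sources used here). RMA subtracts background, makes the arrays' distributions equal and summarises probes, which removes a global shift between arrays. Gene symbols came from the platform annotation: 233753 probe sets had 1 symbol, 5139 several and 30859 none, and only those with 1 were averaged into 23152 gene values. Genes listed under older symbols were matched through RefSeq synonyms. Differences were fitted with limma 3.58.1 (lmFit, eBayes) in R 4.3.3, on all probe sets and on all genes, with Benjamini-Hochberg adjustment at 0.05; diffSplice compared the probe sets of a gene. The scripts were tested on simulated data. Named genes were all members, per list the pair with the largest differences and the one with the highest mean, partners that passed, and the 3 genes most like the leading member; genes beyond this rule were named after their values were seen. Members and lists were chosen with earlier results of these data known. Alternatives were a plain analysis of variance, an intensity trend, array centring, quantile normalization, the median of probe sets, leaving out dim probe sets, a replicate block, fold thresholds and leaving out each array. Promoters were read from RefSeq windows with Python 3.11.15, and figures drawn with matplotlib 3.10.9. No depth applies to arrays; the number of aliquots limits the precision.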

Additional observations from a re-analysis of the deposited data

How the results depend on the processing

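Among refits of a single member's difference, 96 kept their direction and side of the threshold, and 6 came to pass it. The 4 others were of Syce3, whose sign changed with the median of probe sets (-0.10) and with 3 of the arrays left out in turn (-0.029 to 0.052 over the 6). The difference of medians of arrays, which has no test, kept every sign. The number of members that passed was 0 as reported, and 0 with plain analysis of variance, quantile normalization, dim probe sets left out and the median of probe sets. It was 3 with an intensity trend in limma (Syce2 higher, adjusted p = 0.0050; Sycp2 and Sycp3 lower, adjusted p = 0.012 and 0.018), where 13.2% of all genes passed against 8.41%. It was 1 with arrays centred on the median (Syce2, 0.33). Leaving out each array gave 0 to 1: Hormad1 without control 3 (-0.43) and Syce2 without Mgat1 cKO 2 (0.38). For probe sets the count was 1 with plain analysis of variance (17395438 of Sycp2, -0.27, adjusted p = 0.031) and 0 to 1 with each array left out (17400394 of Hormad1, -1.23, without control 3). For members with unlike probe sets it was 0 to 1 (Sycp2 without Mgat1 cKO 3, adjusted p = 0.018, where 6.65% of all tested genes passed). The causes were not tested. Taking the median level over probe sets on each array moved Sycp3 to -0.05 (adjusted p = 0.89) and Syce2 to 0.18 (adjusted p = 0.37). The median of the Sycp3 probe set differences was -0.27. Replicate numbers are shared between genotypes, but the deviations of same-numbered arrays correlated at -0.02, -0.06 and -0.02, so they do not pair the arrays; with the replicate number as a block, 0 members and 0 probe sets passed. Dim probe sets and the 3 aliquots of 1 pool limit what can be seen.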
